A study of Mus musculus with 36 samples.

Results

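Expression of 8 genes of PPAR signalling and fatty acid oxidation was followed in mouse duodenal organoids: Ppara, Cpt1a, Acadm, Hadha, Hadhb, Acaa2, Ehhadh and Pdk4. They were taken by name from a table of 34197 genes, and 7 of the 8 had enough counts to be tested. Organoids of C57BL/6 mice, male or virgin female and over 8 weeks old, were held on a microfluidic chip and given pulses of DAPT, an inhibitor of gamma-secretase and so of Notch receptor cleavage. The pulse period was 90 min (1.38 µM DAPT), 130 min (2 µM) or 170 min (2.6 µM, with 2 µM also named), and the control was DMSO. Each treatment lasted 24, 48 or 72 h in organoids passaged 3, 2 or 1 days beforehand. This gave 12 groups of 3 libraries, 36 in all, each from 20 to 50 organoids with no cell type enriched. The question was whether Notch oscillations held to one of these periods come with small changes in the mix of cell types.

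Fatty acids enter mitochondria as carnitine esters and are shortened in the matrix by repeated rounds of dehydrogenation, hydration, a further dehydrogenation and thiolysis. PPAR-alpha, a nuclear receptor that binds fatty acids, activates many genes of this pathway, of the peroxisomal pathway and of ketone body synthesis. In the intestine these genes are expressed in absorptive enterocytes, and fatty acid oxidation is also used by intestinal stem cells. Among the 8 genes, Ppara encodes the receptor and Cpt1a the carnitine palmitoyltransferase that controls entry. Acadm encodes the medium-chain acyl-CoA dehydrogenase, Hadha and Hadhb the alpha and beta subunits of the mitochondrial trifunctional protein, and Acaa2 a mitochondrial thiolase. Ehhadh encodes the peroxisomal bifunctional enzyme, and Pdk4 a kinase that inhibits pyruvate dehydrogenase.

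The promoter of Hadhb is shown because both subunits of the trifunctional protein are read, in opposite directions, from one stretch. In the RefSeq promoter table for GRCm38.p6, which holds windows from 250 bases before to 50 bases after a start, 7 of the 8 genes had an entry. The start sites of Hadha (minus strand) and Hadhb (plus strand) lay on chromosome 5 with 272 bases between them, and their windows shared 228 bases. The window of Hadhb, chr5:30155003-30155302 on the plus strand, is printed with the shared bases in capitals.
Hadhb: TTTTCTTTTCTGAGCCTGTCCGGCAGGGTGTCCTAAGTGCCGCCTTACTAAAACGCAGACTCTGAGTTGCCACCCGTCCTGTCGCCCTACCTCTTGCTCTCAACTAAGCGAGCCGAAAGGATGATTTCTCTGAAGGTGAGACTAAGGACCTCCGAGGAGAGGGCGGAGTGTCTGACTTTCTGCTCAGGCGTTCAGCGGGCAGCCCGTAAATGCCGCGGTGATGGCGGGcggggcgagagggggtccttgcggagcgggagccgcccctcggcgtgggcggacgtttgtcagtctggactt
The hexamer AGGTCA, which nuclear receptors such as PPARs recognise, was searched on both strands. It occurred in 2 of the 7 windows, those of Cpt1a and Acadm, and in 16.3% of 32851 promoter windows of the same length. Both are printed with the match in capitals, as examples of a receptor motif near these genes: Cpt1a at chr19:3323051-3323350 (plus strand) and Acadm at chr3:153944594-153944893 (minus strand).
Cpt1a: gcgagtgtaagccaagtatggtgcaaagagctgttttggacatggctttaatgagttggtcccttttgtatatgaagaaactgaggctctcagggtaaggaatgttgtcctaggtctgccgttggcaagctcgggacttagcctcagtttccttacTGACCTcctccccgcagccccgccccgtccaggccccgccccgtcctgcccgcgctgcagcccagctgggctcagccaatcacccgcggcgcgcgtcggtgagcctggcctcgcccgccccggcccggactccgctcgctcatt
Acadm: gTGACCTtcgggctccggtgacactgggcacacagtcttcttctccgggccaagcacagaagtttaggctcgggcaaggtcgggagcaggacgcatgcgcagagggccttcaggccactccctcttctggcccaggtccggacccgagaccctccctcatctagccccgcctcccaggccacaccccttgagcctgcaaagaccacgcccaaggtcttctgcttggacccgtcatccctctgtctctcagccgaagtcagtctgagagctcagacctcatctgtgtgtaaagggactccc
The match began 94 bases before the start site in Cpt1a and 249 bases before it in Acadm. The direct repeat AGGTCANAGGTCA contains the hexamer, and with at most 3 mismatches in its 12 fixed bases it matched 1 of the 7 windows, that of Acadm, and 24.6% of all windows. This match in Acadm began at base 267 of the window, past the start site, and does not include the hexamer in capitals.

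Total counts ran from 482741 to 1447330 per library with a median of 958749. By median they were 1088495 at 90 min, 876314 at 130 min, 1121958 at 170 min and 828506 in DMSO. Values below are counts per 1000000 counts (CPM), scaled for library composition by TMM, and each molecule was counted once by its barcode. Summed markers of enterocytes were at 1805 to 10459 CPM. Those of other tissues were at 0 to 39.4 CPM for fibroblasts, 2.84 to 19.6 CPM for immune cells, 0 to 8.37 CPM for endothelial cells, 0 to 2.74 CPM for adipocytes, 40.5 to 163 CPM for hepatocytes and 109 to 317 CPM for muscle. Only 1 of 7 fibroblast, 1 of 5 hepatocyte and 1 of 6 muscle markers had enough counts to be tested. For immune cells, endothelial cells and adipocytes 0 had. In bulk RNA, fewer cells of a type and less RNA per cell cannot be told apart. The labels leave out whether replicates are distinct cultures or mice, so a p-value here covers only the spread between these libraries, which may be technical. They also leave out whether DMSO was pulsed, and since the DAPT dose differed with the period, period and dose cannot be told apart. The time from passage to treatment differed with the duration, so these cannot be told apart either in any comparison of durations.

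Ppara, the receptor, was low and variable, at 1.94 to 32.1 CPM. At 24 h Ppara had 9.93, 19.0 and 8.68 CPM at 90 min, 22.5, 5.05 and 28.5 CPM at 130 min, 19.5, 8.56 and 21.5 CPM at 170 min, and 4.62, 19.5 and 16.7 CPM in DMSO. The levels at 48 h were 15.4, 24.5 and 15.8 CPM at 90 min, 11.7, 8.08 and 9.56 CPM at 130 min, 20.1, 13.1 and 6.48 CPM at 170 min, and 9.82, 14.9 and 4.76 CPM in DMSO. At 72 h they were 11.4, 15.8 and 32.1 CPM at 90 min, 19.4, 1.94 and 6.86 CPM at 130 min, 22.3, 23.8 and 24.3 CPM at 170 min, and 24.9, 12.5 and 23.3 CPM in DMSO. The libraries of 170 min at 72 h were close together, while those of 130 min at 72 h were far apart, and the lowest of them held 2 Ppara molecules. All 90 min libraries lay above all DMSO libraries at 48 h, where 4.49% of all genes did, and above all 130 min libraries at 48 h, where 6.66% of all genes had every 130 min library below. All 170 min libraries lay above all 130 min libraries at 72 h, as for 5.38% of all genes. The mean count was 14.9 per library, and the counting error at that mean was 0.259. The biological coefficient of variation, which leaves out counting error, was larger, at 0.388. Both limit what can be seen. Averaged over durations, the log2 change from DMSO was 0.23 (SE 0.33) at 90 min, -0.31 (SE 0.35) at 130 min and 0.29 (SE 0.32) at 170 min. These values moved in both directions with the libraries used. The first was 0.04 without replicate 3 of 90 min at 72 h and 0.48 without the 24 h libraries. The second was 0.22 without replicate 2 of every group and -0.83 without replicate 1 of every group. The third was 0.07 without replicate 1 of every group and 0.52 without replicate 2 of every group.

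Cpt1a, which controls entry into mitochondria, ranged from 121 to 232 CPM. At 24 h Cpt1a had 169.7, 232 and 140.3 CPM at 90 min, 208, 146 and 151 CPM at 130 min, 183, 125 and 121 CPM at 170 min, and 136, 197 and 138 CPM in DMSO. The 48 h libraries had 164, 156 and 191 CPM at 90 min, 214, 136 and 143 CPM at 130 min, 177, 138 and 147 CPM at 170 min, and 124, 181 and 182 CPM in DMSO. The 72 h libraries had 199, 186 and 202 CPM at 90 min, 201, 195 and 145 CPM at 130 min, 189, 198 and 203 CPM at 170 min, and 195, 193 and 197 CPM in DMSO. The treatments overlapped at each duration. The DMSO libraries were close together at 72 h and far apart at 24 h, as were those of 170 min. At 72 h, 11 of 12 libraries lay above the 24 h mean of their treatment, with a median of 196 CPM against 149 CPM at 24 h, although the ranges of the 2 durations overlapped. The log2 change from 24 h was 0.25 (SE 0.10, 95% interval 0.06 to 0.45, unadjusted p 0.0135, adjusted p 0.223, edgeR's quasi-likelihood test), and it was 0.16 without replicate 3 of every group. Without a filter on low counts it passed (0.26, SE 0.07, adjusted p 0.0186, edgeR's quasi-likelihood test over 34197 genes). Other pathway genes also passed in that setting and comparison, though none did with the filter. The share of all genes that passed in it is not reported here. Against 48 h the log2 change at 72 h was 0.24 (SE 0.10, unadjusted p 0.0171, adjusted p 0.334), again with 11 of 12 libraries above.

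Acadm, the medium-chain dehydrogenase, ranged from 100.2 to 169 CPM. Its biological coefficient of variation, which leaves out counting error, was the smallest of the 7 genes (0.0624). The counting error at its mean count was larger, at 0.0916. At 24 h Acadm had 100.2, 131 and 101 CPM at 90 min, 127, 145 and 169 CPM at 130 min, 149.8, 126 and 123 CPM at 170 min, and 118, 134 and 149.9 CPM in DMSO. The 48 h libraries had 122, 124 and 114 CPM at 90 min, 123, 115 and 136 CPM at 130 min, 122, 108 and 114 CPM at 170 min, and 119, 124 and 115 CPM in DMSO. The 72 h libraries had 118, 102 and 135 CPM at 90 min, 144, 114 and 119 CPM at 130 min, 124, 125 and 141 CPM at 170 min, and 129, 118 and 136 CPM in DMSO. At 24 h, 2 of the 3 libraries of 90 min were the lowest of all and 1 library of 130 min was the highest, but the groups overlapped. Averaged over durations, the log2 change between 130 and 90 min was 0.18 (SE 0.07, unadjusted p 0.0176, adjusted p 0.370, edgeR's quasi-likelihood test). It was 0.13 (SE 0.07) with the log2 library total as a covariate and 0.07 without the 24 h libraries. Summed enterocyte markers had a median of 5741 CPM at 130 min and 4529 CPM at 90 min, and the part of these markers and of library totals in the difference was not tested.

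Hadha and Hadhb encode partner subunits. At 24 h Hadha had 215, 230.2 and 182 CPM at 90 min, 178, 139 and 258 CPM at 130 min, 198, 183 and 193 CPM at 170 min, and 245, 215 and 196 CPM in DMSO. The 48 h libraries had 180.0, 201 and 205 CPM at 90 min, 199, 186 and 194 CPM at 130 min, 180.0, 175 and 199 CPM at 170 min, and 183, 195 and 173 CPM in DMSO. The 72 h libraries had 186, 188 and 224 CPM at 90 min, 241, 167 and 206 CPM at 130 min, 198, 169 and 253 CPM at 170 min, and 237, 198 and 217 CPM in DMSO. For Hadha no treatment stood apart from another at any duration, and its highest and lowest libraries, at 258 and 139 CPM, were both of 130 min at 24 h. At 24 h Hadhb had 256, 260.0 and 247 CPM at 90 min, 295, 279.8 and 371 CPM at 130 min, 309, 249.8 and 275 CPM at 170 min, and 339.8, 278 and 284 CPM in DMSO. Its levels at 48 h were 233, 242 and 232 CPM at 90 min, 256, 286 and 261 CPM at 130 min, 258, 238 and 239 CPM at 170 min, and 254, 259 and 227 CPM in DMSO. At 72 h Hadhb had 284, 253 and 246 CPM at 90 min, 290.3, 244 and 261 CPM at 130 min, 257, 238 and 285 CPM at 170 min, and 300.2, 268 and 249.5 CPM in DMSO. All 90 min libraries lay below all DMSO libraries of Hadhb at 24 h, as for 6.11% of all genes. All 130 min libraries lay above those of 90 min at 24 h (5.35% of all genes) and at 48 h (7.62%). The log2 change of Hadhb between 130 and 90 min, averaged over durations, was 0.17 (SE 0.06, unadjusted p 0.0142, adjusted p 0.360, edgeR's quasi-likelihood test), and 0.08 (SE 0.05) with the library total as a covariate. Between 48 and 24 h Hadhb differed by a log2 change of -0.20 (SE 0.06, 95% interval -0.31 to -0.08, unadjusted p 0.00118, adjusted p 0.324, same test). All 12 libraries of 48 h were below the 24 h mean of their treatment, with a median of 248 CPM against 279 CPM at 24 h. For Hadha the same change was -0.09 (SE 0.08).

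Acaa2, the thiolase, ranged from 143 to 268 CPM. At 24 h Acaa2 had 194, 183 and 169 CPM at 90 min, 226, 183 and 268 CPM at 130 min, 201, 156 and 183 CPM at 170 min, and 227, 199.8 and 214 CPM in DMSO. The 48 h libraries had 177, 183 and 143 CPM at 90 min, 180.2, 178 and 212 CPM at 130 min, 177, 169 and 189 CPM at 170 min, and 162, 212 and 144 CPM in DMSO. The 72 h libraries had 179, 195 and 207 CPM at 90 min, 179, 152 and 211 CPM at 130 min, 153, 152 and 196 CPM at 170 min, and 198, 185 and 197 CPM in DMSO. All 90 min libraries lay below all DMSO libraries at 24 h, as for 6.11% of all genes, and no other pair of treatments was separate at any duration. Between 48 and 24 h the log2 change was -0.17 (SE 0.07, unadjusted p 0.0257, adjusted p 0.469, edgeR's quasi-likelihood test), with 10 of 12 libraries below. Between 170 and 130 min it was -0.17 (SE 0.08, unadjusted p 0.0409, adjusted p 0.398, same test), but -0.07 without replicate 3 of 130 min.

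Ehhadh, the peroxisomal enzyme, ranged from 2.38 to 28.5 CPM, with a mean of 12.5 counts per library and a biological coefficient of variation of 0.335. At 24 h Ehhadh had 13.5, 9.48 and 18.8 CPM at 90 min, 9.64, 24.2 and 28.5 CPM at 130 min, 13.4, 14.0 and 22.1 CPM at 170 min, and 4.62, 9.08 and 25.6 CPM in DMSO. The 48 h libraries had 16.2, 11.8 and 8.36 CPM at 90 min, 8.48, 19.6 and 22.7 CPM at 130 min, 12.6, 15.8 and 13.0 CPM at 170 min, and 13.1, 8.67 and 2.38 CPM in DMSO. The 72 h libraries had 2.84, 7.91 and 12.8 CPM at 90 min, 10.6, 6.78 and 16.5 CPM at 130 min, 5.06, 5.76 and 10.4 CPM at 170 min, and 16.1, 13.3 and 8.46 CPM in DMSO. Replicates spread widely, and the treatments overlapped at each duration. At 72 h, 10 of 12 libraries were below the 24 h mean of their treatment, with a median of 9.44 CPM against 13.8 CPM at 24 h. The log2 change was -0.77 (SE 0.27, 95% interval -1.32 to -0.22, unadjusted p 0.00683, adjusted p 0.173, edgeR's quasi-likelihood test). Pdk4, the pyruvate dehydrogenase kinase, was hardly detected, with 9 molecules in all and 28 of 36 libraries at 0. Replicate 3 of 130 min at 24 h had 2 molecules, and the other 7 libraries with any had 1 each. A count of 0 allows up to 3 counts, or 2.33 to 6.94 CPM over the libraries at 0, so that no difference in Pdk4 was detectable at this depth.

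**Figure D1:**
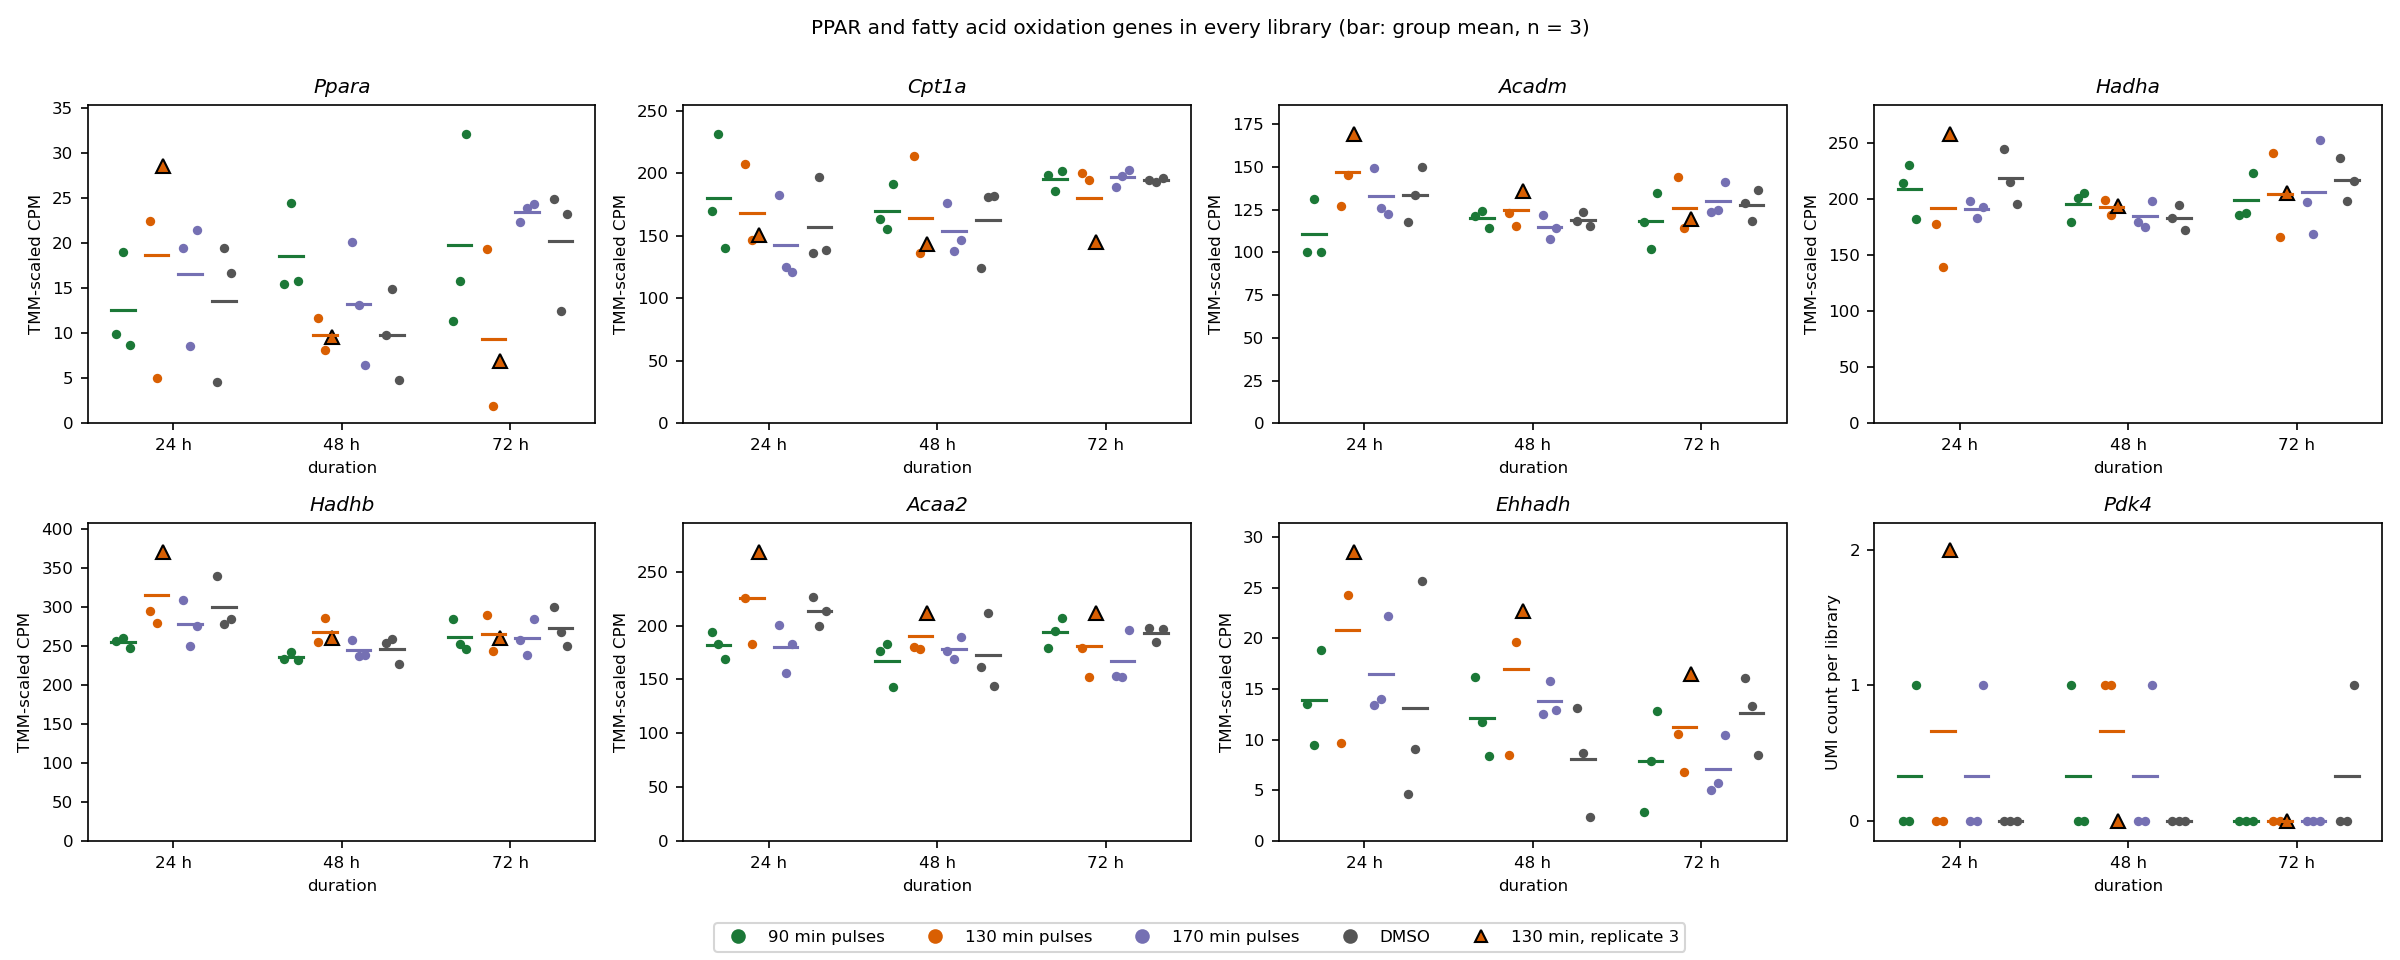
Levels of the 8 genes in every library, as TMM-scaled CPM (molecule counts for Pdk4), by duration on the horizontal axis and in the order 90, 130, 170 min and DMSO within each; bars are group means of 3 libraries and triangles are replicate 3 of 130 min. At 24 h this triangle is the highest of all 36 points for Acadm, Hadha, Hadhb, Acaa2 and Ehhadh.

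Over the 7 tested genes, none differed from DMSO at any pulse period by the test. Averaged over durations with equal weight, 0 of 7 passed an adjusted p of 0.05 at 90, 130 and 170 min (edgeR's quasi-likelihood test with Benjamini-Hochberg adjustment over 11462 genes), and so did 0% of all tested genes in each comparison. At an unadjusted p under 0.05 the count was also 0 of 7 in each, beside 7.92% of all genes for 90 min, 5.49% for 130 min and 8.64% for 170 min. The median log2 change of the 7 genes was -0.03 for 90 min, 0.04 for 130 min and -0.06 for 170 min, and that of all tested genes was 0.02 for 90 min, -0.004 for 130 min and 0.01 for 170 min. For Cpt1a, Acadm, Hadha, Hadhb and Acaa2 all 95% intervals of these changes lay between -0.30 and 0.31. They were wider for the genes with few counts, from -1.03 to 0.95 for Ppara and from -0.64 to 1.08 for Ehhadh.

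**Figure D2:**
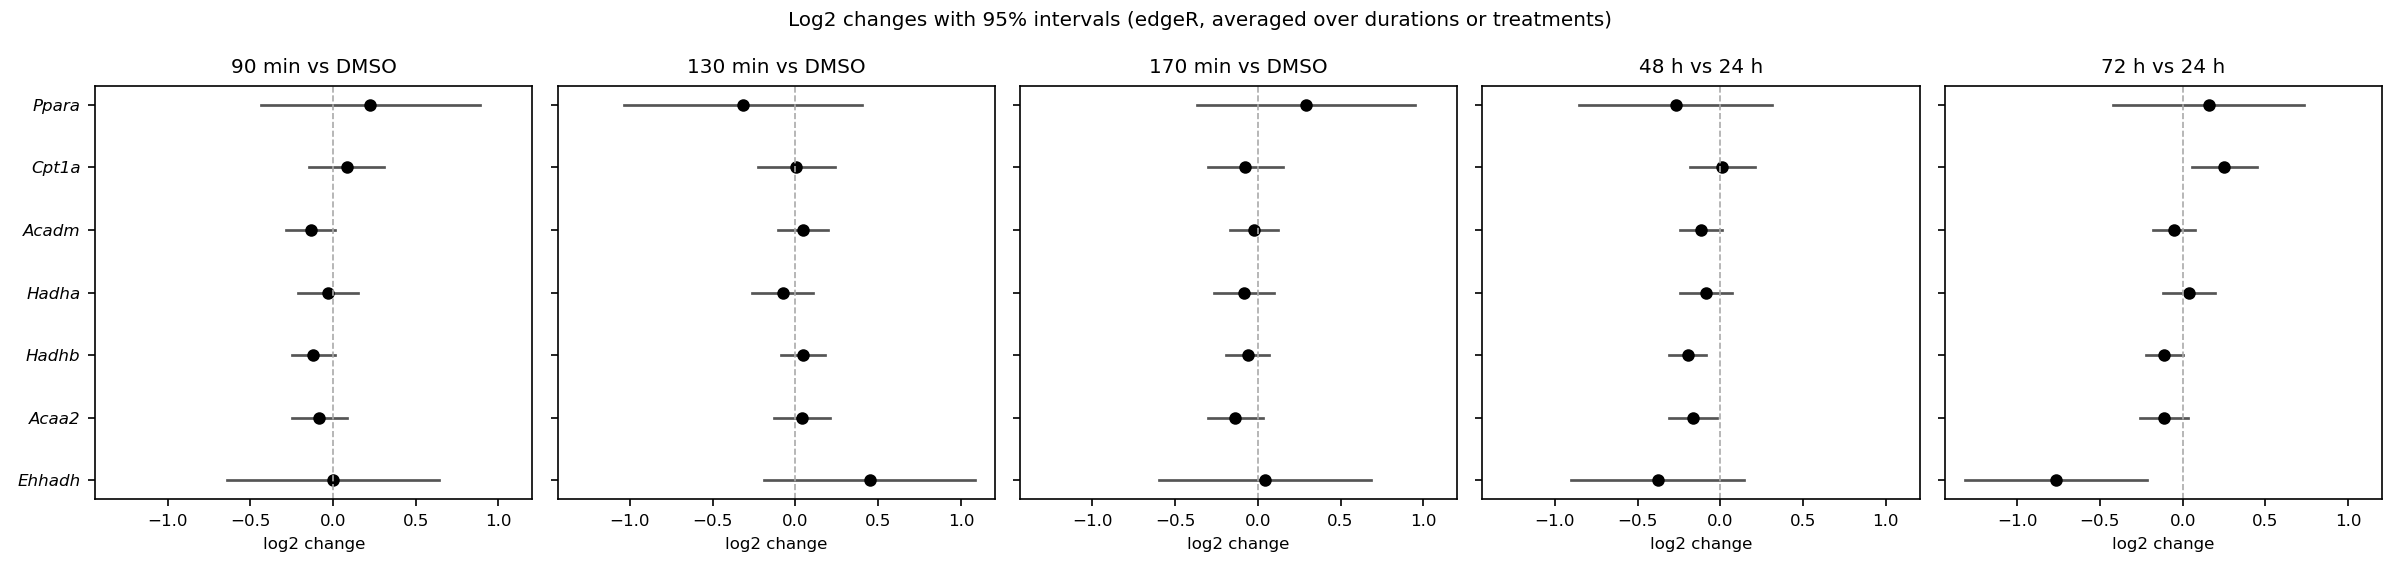
Log2 changes (points) with 95% intervals (lines) of the 7 tested genes for 90, 130 and 170 min over DMSO, averaged over durations, and for 48 and 72 h over 24 h, averaged over treatments. Intervals of Ppara and Ehhadh are the widest, and those of Hadhb and Acaa2 between 48 and 24 h and of Cpt1a and Ehhadh between 72 and 24 h leave out 0 before adjustment.

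Between pulse periods, 0 of 7 genes passed in any pair averaged over durations, and 0% of all genes. At an unadjusted p under 0.05 there were 2 of 7 between 130 and 90 min (Acadm and Hadhb, beside 11.8% of all genes), 1 of 7 between 170 and 130 min (Acaa2, beside 12%) and 0 of 7 between 170 and 90 min (beside 1.3%). At single durations 0 of 7 genes and 0% of all genes passed in each of the 18 comparisons of 2 treatments. Against DMSO, the unadjusted counts for 90 min were 2 of 7 at 24 h (Acadm and Hadhb, 9.69% of all genes) and 0 of 7 at 48 h (1.53%) and 72 h (0.995%). For 130 min they were 0 of 7 at 24 h (4.7%) and 48 h (2.47%) and 1 of 7 at 72 h (Ppara, 10.3%). For 170 min they were 0 of 7 in each of 24 h (12.4%), 48 h (3.15%) and 72 h (2.17%). Of these, Acadm at 24 h had a log2 change of -0.31 (SE 0.13) for 90 min and Ppara at 72 h one of -1.25 (SE 0.62) for 130 min. Between 170 and 90 min the count was 1 of 7 at 24 h (Acadm, 1.19%) and 0 of 7 at 48 h (1.92%) and 72 h (1.76%). Between 130 and 90 min it was 3 of 7 at 24 h (Acadm, Hadhb and Acaa2, 9.54%), 0 of 7 at 48 h (2.98%) and 1 of 7 at 72 h (Ppara, 6.53%). Between 170 and 130 min it was 1 of 7 at 24 h (Acaa2, 8.81%), 0 of 7 at 48 h (2.24%) and 1 of 7 at 72 h (Ppara, 5.16%). Groups did not overlap for at least 1 of the 7 genes in 5 of the 18 comparisons; in the other 13 none was apart, where 4.62% to 15.1% of all genes were, above and below together.

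Between durations, 0 of 7 genes passed. Averaged over treatments, 0.157% of all genes passed between 72 and 24 h (6 higher and 12 lower) and 0% between 48 and 24 h and between 72 and 48 h. At an unadjusted p under 0.05 there were 2 of 7 between 48 and 24 h (Hadhb and Acaa2, 9.63% of all genes), 2 of 7 between 72 and 24 h (Cpt1a and Ehhadh, 14.8%) and 1 of 7 between 72 and 48 h (Cpt1a, 12.6%). Within a treatment 0 of 7 passed in any of the 8 comparisons with 24 h, beside 0.209% of all genes for 72 h at 130 min, 0.00872% for 48 h at 130 min and 0% in the other 6. The unadjusted counts for 48 h were 2 of 7 in DMSO (Hadhb and Acaa2, 7.35%) and 0 of 7 at 90 min (0.724%), 130 min (6.81%) and 170 min (1.57%). For 72 h they were 2 of 7 at 130 min (Hadhb and Acaa2, 14.2%), 2 of 7 at 170 min (Cpt1a and Ehhadh, 7.51%), and 0 of 7 at 90 min (1.31%) and in DMSO (5.81%). The interaction of treatment and duration had 0 of 7 genes by adjusted p (0% of all) and 0 of 7 by unadjusted p (2.37%). Summed enterocyte markers ran from 3977 to 10459 CPM (median 6320) in the 24 h libraries, 1995 to 6079 CPM (median 5079) in the 48 h ones and 1805 to 5569 CPM (median 4854) in the 72 h ones. Of the 23 markers listed 22 were tested and 0 were at 0 in all libraries, and their part in the differences between durations was not tested.

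Replicate 3 of 130 min was singled out with these levels already known, so that the ranks below describe it and test nothing. At 24 h it had the highest level of all 36 libraries for Acadm (169 CPM), Hadha (258 CPM), Hadhb (371 CPM), Acaa2 (268 CPM) and Ehhadh (28.5 CPM), ranked 2 for Ppara (28.5 CPM) and 24 for Cpt1a (151 CPM). It was above both other replicates for 6 of 7 genes, as it was for 36.5% of all genes, and first of 36 for 5 of 7, as for 9.54% of all genes. Replicate 3 of 130 min was above both others for 3 of 7 genes at 48 h (31.1% of all genes) and for 2 of 7 at 72 h (31.5%), and was first of 36 for none at either. The 24 h library had 656157 counts in all. It also had the highest sum of enterocyte markers (10459 CPM), of the other mitochondrial beta-oxidation genes (3085 CPM) and of the peroxisomal ones (1958 CPM), while its sum of Lgr5 stem cell markers ranked 26 of 36. The part of these values in its levels of the 7 genes was not tested.

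**Figure D3:**
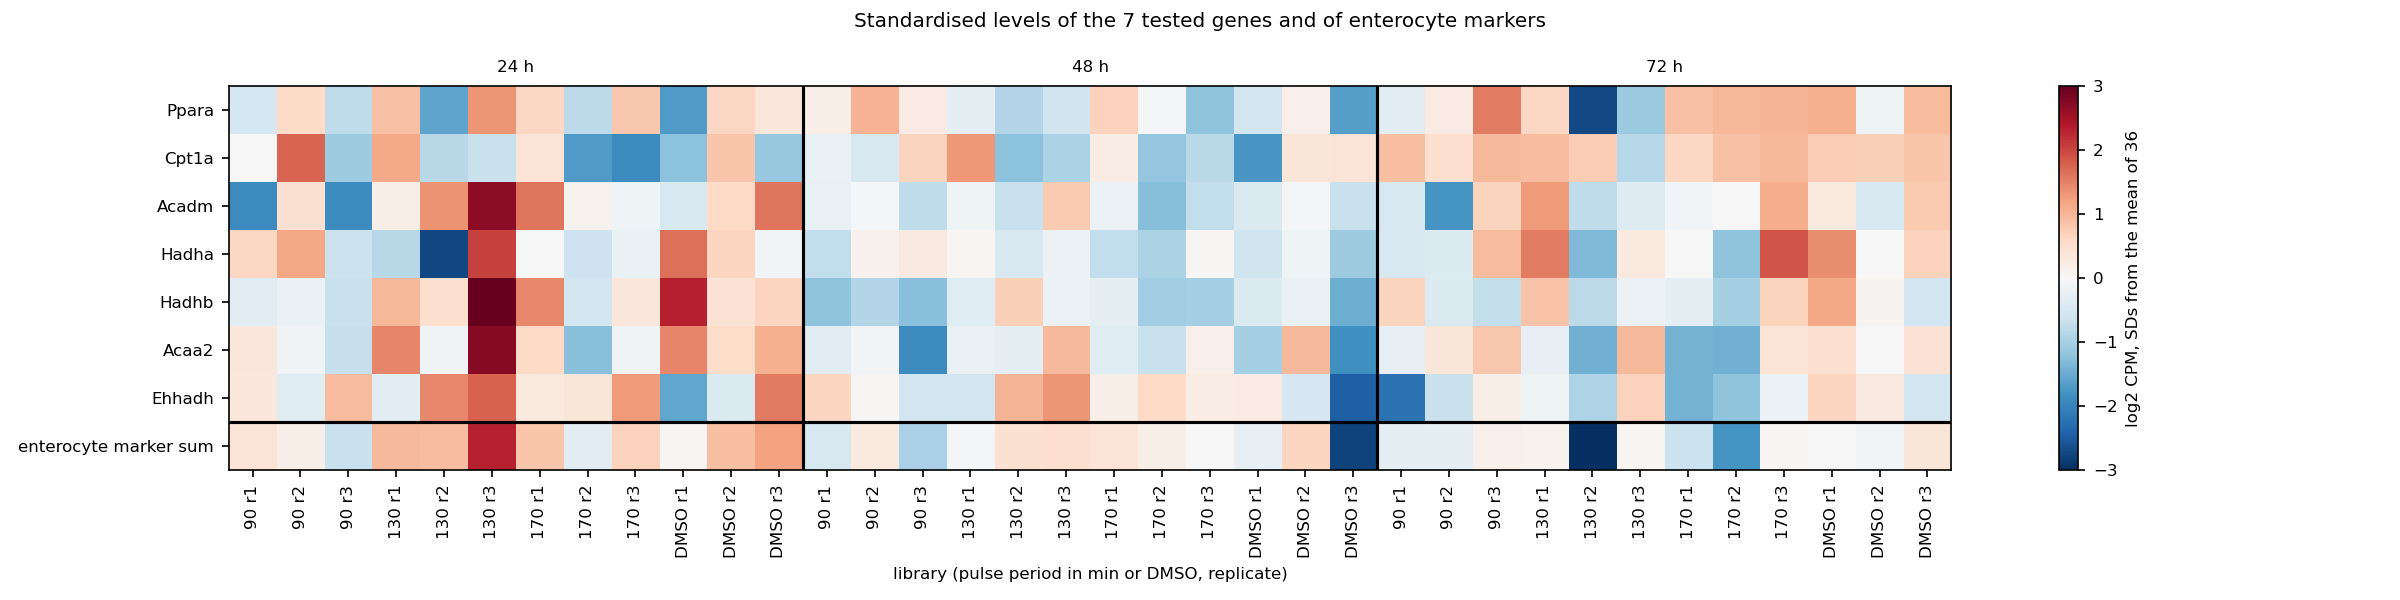
Levels of the 7 tested genes and the summed enterocyte markers in each library (columns, by duration and treatment), as log2 CPM in SDs from the mean of the 36 libraries, red for high and blue for low. The column of 130 min replicate 3 at 24 h is red for 6 genes and for the marker sum but not for Cpt1a.

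Across the 36 libraries some pairs of the 7 genes varied together. Of 21 pairs, 18 had a positive Pearson correlation of log2 CPM, as did 49.7% of all pairs of tested genes. An adjusted p under 0.05 was reached by 9 pairs, 8 positive and 1 negative (100000 permutations, adjusted over 35 relations). These 9 had an absolute r of at least 0.40, as did 11.9% of all pairs of tested genes. One of them, Acaa2 with Ehhadh, did not pass by Spearman's rho (0.28, adjusted p 0.169, by permutation). Its r was 0.29 without the 2 libraries farthest from the median. The permutation p-values treat the 36 libraries as independent. The libraries fall in groups, however, and same-numbered libraries of some treatments deviated together. The p-values of all 35 relations, including those with enterocyte markers and library totals below, may therefore be too small. Pairs that share a gene are not independent. Hadhb and Acaa2 had the highest (Pearson r = 0.70, adjusted p 2.33e-04; Spearman rho = 0.62, adjusted p 0.00105, by permutation), with r = 0.55 without the 2 libraries farthest from the median. Within durations r was 0.89 for 24 h, 0.52 for 48 h and 0.32 for 72 h. For Hadha and Hadhb, whose promoter windows overlap, r was 0.49 (adjusted p 0.00884) and rho 0.41 (adjusted p 0.0336) by permutation, with r = 0.50 without the 2 farthest libraries and 0.69 after group means were removed. Within durations r was 0.49 for 24 h, 0.10 for 48 h and 0.65 for 72 h, so that the relation was weak in the 48 h libraries. Over all libraries Hadha had r = 0.51 with Acaa2, and Hadhb had 0.70 with Acaa2 and 0.56 with Acadm. After group means were removed these were 0.67, 0.55 and 0.31. The part of the shared promoter stretch in the relation of Hadha and Hadhb was not tested. Cpt1a and Ehhadh ran opposite to each other (r = -0.55 and rho = -0.58, both with an adjusted p of 0.00245 by permutation), with r = -0.53 without the 2 farthest libraries. At the single durations r was -0.43 for 24 h, -0.62 for 48 h and -0.36 for 72 h.

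The enterocyte markers include Fabp1 and Fabp2, which were also listed as PPAR target genes, so the marker sum is not independent of the pathway. The sum of enterocyte markers correlated with 5 of the 7 genes at an adjusted p under 0.05 by Pearson's r. These 5 had an absolute r of at least 0.46, as did 14.4% of the 11440 tested genes outside the marker list. The highest was Acaa2 (r = 0.78, adjusted p 1.75e-04; rho = 0.70, adjusted p 3.5e-04, by permutation), with r = 0.77 without the 2 farthest libraries and 0.78 to 0.79 within durations. Ehhadh (r = 0.62), Hadhb (r = 0.61) and Acadm (r = 0.51) followed. For Ppara r was 0.46 over all libraries and 0.12 without the 2 farthest, and it was 0.60 for 24 h, 0.48 for 48 h and 0.62 for 72 h. By Spearman's rho Ppara did not pass (0.29, adjusted p 0.154, by permutation). For Cpt1a r was -0.22 (adjusted p 0.261 by permutation). Library totals correlated with Hadhb (r = -0.65, adjusted p 1.75e-04; rho = -0.62, adjusted p 0.00105, by permutation), Hadha (r = -0.54), Acaa2 (r = -0.49) and Acadm (r = -0.38), 4 of 7 genes, where 33.9% of all genes had an absolute r of at least 0.38. This count is by Pearson's r, and by Spearman's rho Acadm did not pass (-0.33, adjusted p 0.0964, by permutation). The part of library totals in the pairs was not tested.

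**Figure D4:**
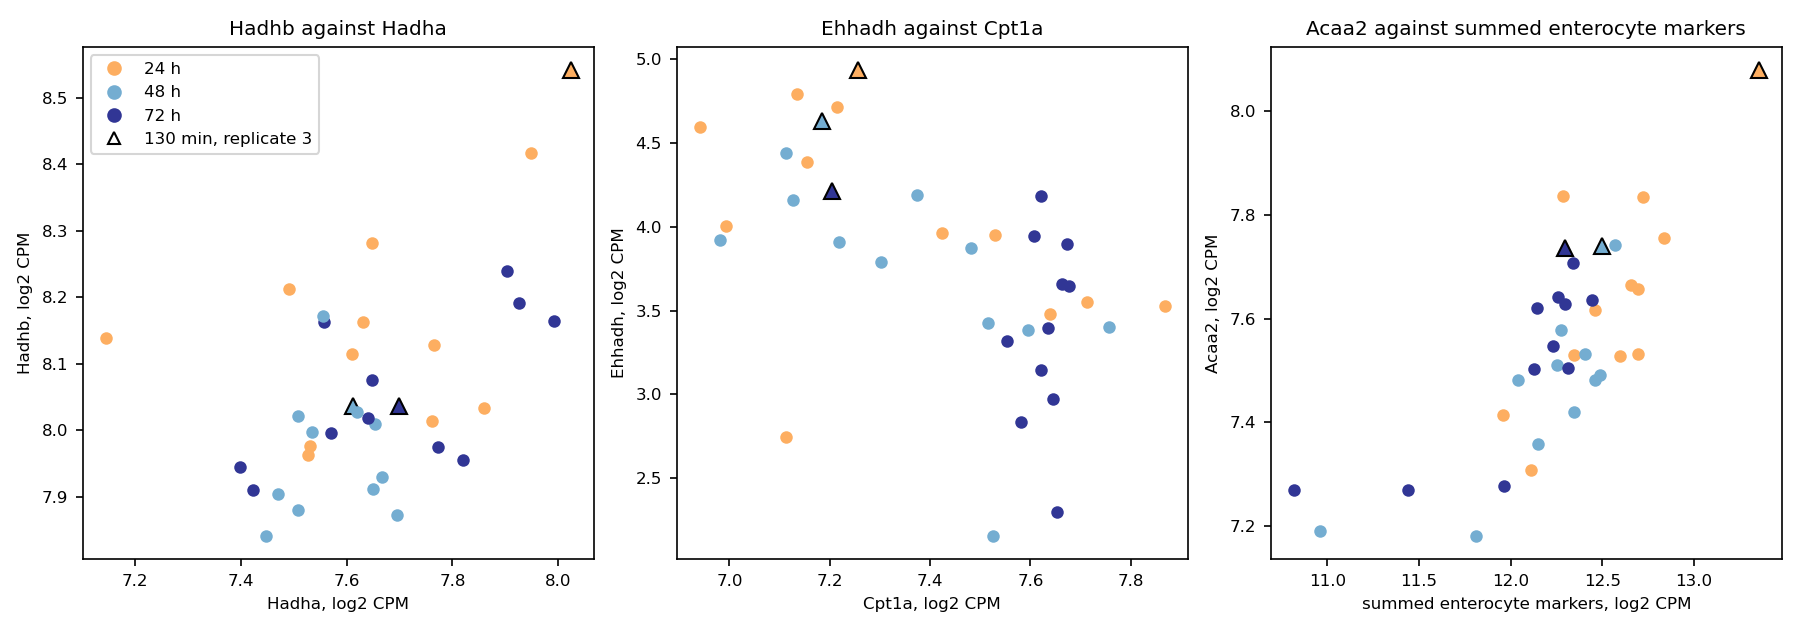
Log2 CPM of Hadhb against Hadha, of Ehhadh against Cpt1a and of Acaa2 against the summed enterocyte markers, 1 point per library, coloured by duration, with triangles for replicate 3 of 130 min. Pearson's r is 0.49 for Hadha and Hadhb, -0.55 for Cpt1a and Ehhadh and 0.78 for Acaa2 and the markers.

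The tested genes most like the mean of the 7 genes over the 36 libraries were Mogat2 (Pearson r = 0.89), Cyb5r3 (r = 0.88), Tm4sf5 (r = 0.86), Gpd1 (r = 0.85) and Dgat1 (r = 0.85). Mogat2 and Dgat1 encode acyltransferases of triglyceride synthesis, and Dgat1 is also in the enterocyte list. For single genes the nearest were Espn for Ppara (r = 0.75), Tmem179b for Cpt1a (r = 0.90), Ifngr2 for Acadm (r = 0.72), Rrbp1 for Hadha (r = 0.85), Sar1b for Hadhb (r = 0.86), Dhrs1 for Acaa2 (r = 0.87) and Slc30a10 for Ehhadh (r = 0.79). Each was the highest of all tested genes, so that these values are a description.

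Other genes of the pathway were followed in 7 lists, with 83 of 98 genes tested. Against DMSO, 0 of 83 passed at any period. Among those with the smallest p-values, Oxct1 and Bdh1, enzymes that handle ketone bodies, had log2 changes of -0.24 (SE 0.08) and -0.26 (SE 0.08) at 170 min. Their adjusted p-values were 0.537 for Oxct1 and 0.520 for Bdh1 (edgeR's quasi-likelihood test). Between 72 and 24 h the mitochondrial beta-oxidation list had 14 of 17 estimates below 0 (median -0.19) and the peroxisomal list 13 of 16 (median -0.16), beside a median of -0.003 over all genes, and 0 passed. The nearest to passing was Fabp1, a fatty acid binding protein of enterocytes and a PPAR target, with a log2 change of -1.05 (SE 0.24, adjusted p 0.0501, edgeR's quasi-likelihood test). Summed enterocyte markers had a median of 6320 CPM at 24 h and 4854 CPM at 72 h. Their part in these estimates was not tested.

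In the other averaged comparisons 0 of 83 genes passed either. Me1, the cytosolic malic enzyme and a PPAR target, had a log2 change of 0.24 (SE 0.09) between 130 and 90 min and -0.31 (SE 0.09) between 170 and 130 min, comparisons that share the 130 min libraries. Acadl, the long-chain acyl-CoA dehydrogenase, had 0.22 (SE 0.09) between 130 and 90 min. Between 48 and 24 h Ech1, a dienoyl-CoA isomerase, had -0.21 (SE 0.06) and Fabp2, the intestinal fatty acid binding protein, -0.41 (SE 0.14). Between 72 and 48 h Pecr, a peroxisomal enoyl-CoA reductase, had -0.60 (SE 0.12, adjusted p 0.126) and Plin2, a lipid droplet coat protein, 0.27 (SE 0.06, adjusted p 0.148), by edgeR's quasi-likelihood test. Between 72 and 24 h Decr1, a mitochondrial dienoyl-CoA reductase, had -0.32 (SE 0.09, adjusted p 0.103) and Cd36, a fatty acid transporter, -1.72 (SE 0.50, adjusted p 0.105), by the same test. Without replicate 3 of 130 min at 72 h, Cd36 had -2.69 and passed (adjusted p 0.0222). In that setting Fabp1 passed too between 72 and 24 h (-1.18, adjusted p 0.0222), as did Pecr between 72 and 48 h (-0.69, adjusted p 0.00923), by edgeR's quasi-likelihood test.

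Within 130 min, 2 of the 83 genes fell at 72 h relative to 24 h, beside 0.209% of all tested genes that passed in either direction. Acot13, a thioesterase, had 98.5, 93.0 and 121 CPM at 72 h, against 153, 153 and 208 CPM at 24 h (log2 change -0.70, SE 0.15, adjusted p 0.0485, edgeR's quasi-likelihood test). Scp2, which encodes a peroxisomal thiolase and a sterol carrier protein, had 86.2, 88.2 and 122 CPM at 72 h, against 163, 148 and 213 CPM at 24 h (-0.80, SE 0.18, adjusted p 0.0485, same test). Replicate 3 was the highest in both groups for both genes. Without replicate 3 of 130 min the changes were -0.70 for Acot13 and -0.85 for Scp2, at an adjusted p of 0.0929 each. Where 130 and 170 min libraries of the same number were treated as pairs, Angptl4, a lipoprotein lipase inhibitor and PPAR target, was called lower at 170 than at 130 min at 72 h (adjusted p 0.0144, edgeR's quasi-likelihood test). Angptl4 had 0, 0 and 1 molecules at 170 min and 1, 2 and 31 at 130 min, where the 31 are those of replicate 3. Without pairs its adjusted p was 0.887.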

How the data were processed

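RNA of 36 organoid samples went through Sort-seq, in which every molecule carries a barcode (per the labels' protocols). The submitters' processing notes name STAR 2.7.8a and UMI-tools 1.1.1; the genome build is not given in the sources used here. The deposited values are whole-number counts per gene and library, with 0 columns left unmapped.

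The 8 genes, the pathway and marker lists and the tests were chosen with earlier results of these data known. Counts were tested with edgeR 4.0.16 in R 4.3.3: filterByExpr kept 11462 genes and left 22735, TMM normalization, 1 coefficient for each of 12 groups (24 residual degrees of freedom), robust quasi-likelihood F tests, two-sided, Benjamini-Hochberg adjustment over all tested genes, threshold 0.05. Standard errors are Wald values from the fitted weights and the quasi-likelihood variance, with 95% intervals. Log2 CPM for correlations used a prior count of 2. Intervals and floors cover these samples only; a floor of 3 counts covers counting error only. Same-numbered 130 and 170 min libraries deviated together in 9 of 9 pairs (correlations of 0.24 to 0.59), so they were also fitted as pairs; 90 min and DMSO did so in 7 of 9. Other pathway genes were named if they passed, and otherwise as the 3 with the smallest p-values, some of which are not reported here; marker genes were used as sums. The tests were tested on simulated data. Alternatives were other normalization, no filter, DESeq2 1.42.0, the library total as a covariate, replicate blocks and libraries left out.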

Additional observations from a re-analysis of the deposited data

How the results depend on the processing

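Among the 7 tested genes, 0 passed in each comparison under each alternative run, with 1 exception: without a low-count filter 1 gene passed between 72 and 24 h, Cpt1a. More of the other pathway genes passed in that setting too, as given below. The share of all genes that passed in it is not reported here. With the replicate block over all libraries, 0 of these 7 passed in any comparison of treatments, and the log2 change of Hadhb between 130 and 90 min was 0.17; durations could not be compared under that block, since it lies within them. With the block over 130 and 170 min alone, and with that over 90 min and DMSO alone, 0 of 7 passed as well. The block over 90 min and DMSO was an alternative chosen after seeing the data. Angptl4 was the only other pathway gene called under a block. Only comparisons of treatments were run under a block, so the calls of Acot13 and Scp2 between durations were not examined there. Counts of other pathway genes depended more on the setting, and the cause was not tested. Between 72 and 24 h averaged over treatments the count was 0, but 5 with no filter, 2 without replicate 3 of 130 min, 1 with DESeq2 and between 0 and 3 with single libraries or replicate numbers left out; Fabp1, Cd36 and Decr1 were among the genes called in some of these. Between 72 and 48 h it was 0, but 2 with no filter, 1 without replicate 3 of 130 min, 1 with DESeq2, and 0 to 2 with single libraries or replicates left out. Within treatments it was 2, but 9 with no filter, 5 with library total as a covariate, 6 with DESeq2, 0 without replicate 3 of 130 min, and 0 to 8 with single libraries or replicates left out, so the calls of Acot13 and Scp2 are near the threshold. Of the 63 averaged log2 changes of the 7 genes, 34 kept their sign under every alternative and 29 did not, among them Ppara at 130 min over DMSO (-0.31, and 0.22 without replicate 2). The changes with an unadjusted p under 0.05, and those of Acot13 and Scp2, kept theirs. The counts of Ppara, Ehhadh and Pdk4 limit what could be seen in them.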
